A study of Mus musculus with 7 samples.

Results

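Chromatin coactivators and remodelers were followed here as a module of 39 named genes in sorted mouse β-cells after 2 days of high fat diet (HFD) or chow diet (CD). The module takes in the large acetyltransferases, the nuclear receptor coactivators, SWI/SNF, CHD and INO80 family remodelers and a set of histone methyltransferases and demethylases, and leaves out the Kmt2 complexes. Members were found by gene symbol. Of the 39 genes, 38 were in the table of 24035 genes and all 38 were among the 12354 genes tested, while Srcap was not analysed here.

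Libraries came from β-cells of male C57BL/6N mice (the NCrl substrain), which were put on HFD or kept on CD for 2 days at 12 weeks of age. Cells were separated by FACS from dispersed islets by the zinc dye ZIGIR and by Ex4-Cy5, a fluorescent ligand of the GLP-1 receptor, and their polyadenylated RNA was sequenced with a stranded kit. There were 4 CD libraries (replicates 1 to 4) and 3 HFD libraries (replicates 2 to 4), each from a separate mouse, and the labels name no transgene or deletion. RNA was read from a pool of sorted cells, so fewer cells with a transcript and less of it per cell cannot be told apart.

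Transcription factors act on chromatin largely through the complexes they recruit. These include coactivators such as CBP and its relative encoded by Ep300, which acetylate histone tails at enhancers, and ATP-driven remodelers, which slide or evict nucleosomes. Demethylases and methyltransferases of histone lysines set marks that these complexes read, and corepressors bring in histone deacetylases. In the β-cell, several of these proteins are partners of islet transcription factors such as Pdx1.

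Start regions of many members were rich in CpG. A promoter window of 300 bases (250 before and 50 after an annotated start) was available for 24 of the 38 genes. Where a gene had several windows, the one with the most CpG was taken. The windows so chosen held a median of 32.5 CpG, against 23 over the 9318 tested genes that had a window, chosen the same way. Over all 32851 windows, without such a choice, the median was 7. Kdm5b (17), Chd9 (19) and Chd6 (20) were below the median of tested genes. The windows of the 4 genes of lowest p that had one are given 5′ to 3′ from RefSeq on GRCm38.p6, with each CG in capitals. Ncor1 and Chd4 each had 2 windows, of which the one richer in CpG is given. The 2 letters CG read the same on both strands and were the one motif searched.
Ncor1, chr11:62457283-62457582, minus strand, 36 CpG: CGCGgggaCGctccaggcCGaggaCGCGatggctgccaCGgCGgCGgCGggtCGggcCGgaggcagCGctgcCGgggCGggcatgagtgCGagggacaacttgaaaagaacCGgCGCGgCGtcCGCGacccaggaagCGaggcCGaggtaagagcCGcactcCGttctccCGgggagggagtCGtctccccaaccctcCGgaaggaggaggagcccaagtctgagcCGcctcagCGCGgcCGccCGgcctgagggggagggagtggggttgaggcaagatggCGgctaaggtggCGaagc
Chd4, chr6:125095913-125096212, plus strand, 29 CpG: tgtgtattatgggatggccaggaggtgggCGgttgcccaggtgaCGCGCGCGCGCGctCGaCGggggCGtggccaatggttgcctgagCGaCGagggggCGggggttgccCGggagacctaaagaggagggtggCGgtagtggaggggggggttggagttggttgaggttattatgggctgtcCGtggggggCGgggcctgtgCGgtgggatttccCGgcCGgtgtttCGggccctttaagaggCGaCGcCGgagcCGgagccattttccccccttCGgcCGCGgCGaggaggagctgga
Crebbp, chr16:4213355-4213654, minus strand, 49 CpG: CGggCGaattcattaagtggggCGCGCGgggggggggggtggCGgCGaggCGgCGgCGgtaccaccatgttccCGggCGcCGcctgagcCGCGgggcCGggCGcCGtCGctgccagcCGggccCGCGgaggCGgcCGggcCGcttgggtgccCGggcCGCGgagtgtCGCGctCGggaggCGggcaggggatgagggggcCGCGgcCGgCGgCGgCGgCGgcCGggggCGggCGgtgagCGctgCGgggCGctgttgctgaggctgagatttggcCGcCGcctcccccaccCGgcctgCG
Ep300, chr15:81585964-81586263, plus strand, 30 CpG: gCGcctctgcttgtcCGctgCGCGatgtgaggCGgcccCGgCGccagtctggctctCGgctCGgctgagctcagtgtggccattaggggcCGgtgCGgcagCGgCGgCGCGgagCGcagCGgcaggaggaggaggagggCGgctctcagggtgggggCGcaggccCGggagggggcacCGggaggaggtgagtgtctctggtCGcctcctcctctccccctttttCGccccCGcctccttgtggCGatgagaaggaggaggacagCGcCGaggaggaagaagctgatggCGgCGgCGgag
Of all windows, 94.6% held at least 1 CG and 12.9% held 29 or more, the number in the Chd4 window, which is the lowest of these 4. These shares count every window, not only the richest of each gene. The CpG content describes the windows and was not related to any value below.

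Members are also long genes. The longest annotated transcript had a median of 8268.5 bases and 29 exons, against 3430 bases and 8 exons over the 12264 tested genes with an annotation. The contrast was smaller for the median length over all transcripts of a gene, at 1874.5 bases against 1429.75. Lengths used below are those of the longest transcript. A transcript of at least 5000 bases was found for 35 members (92.1%) and for 23.3% of tested genes. GC content was close to that of other genes, with a median of 50.6% against 49.7%.

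Total counts were 10559175 to 22557957 per library. HFD replicate 3 stood apart, with a count for 9627 genes against 12484 to 14600 in the other libraries, and it held the highest or lowest value of the 7 libraries for 66.5% of all genes tested and for 76.3% of members. Many values are therefore also given without it. The insulin genes took 27.7% to 29.0% of counts in the CD libraries and 29.9% to 30.9% in the HFD libraries. The sum of 10 β-cell markers, most of which is insulin, was likewise higher in every HFD library, opposite to the sum of the members given below. Taken singly the markers went both ways. Of the 10, 4 had a log2 fold change of HFD over CD below 0, and 5 without HFD replicate 3, with a median of 0.04 over all libraries. Summed over 5 α-cell markers, CD libraries had 330.6 to 599.7 CPM (counts scaled to library size) and HFD libraries 248.4 to 413.5, and over 4 δ- and PP-cell markers they had 461.6 to 1321 and 493.2 to 688.3, with none of these markers at 0 in all libraries. Sums over 9 acinar markers ran from 54.4 to 2463 CPM on CD and from 0.64 to 1944 on HFD, with HFD replicate 3 lowest. The part of these other cells in the values of the members was not tested.

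On CD, members differed widely in level per length (CPM per kilobase of the longest transcript). Brd2, a bromodomain reader of acetylated histones, was highest at 79.1 CPM per kilobase, followed by Smarcc2 at 42.3, Kdm1a at 35.5, Chd4 at 35.1 and Kdm6b at 31.9. The median was 10.01, and 8 members were at 20 or more. Crebbp (4.08), Arid1b (4.61) and Chd1 (5.37) lay near the lower end, and Baz1a was lowest at 0.47. The spread between CD mice was mostly small. The coefficient of variation in the 4 CD libraries had a median of 11.4%, from 2.50% for Chd8 to 59.4% for Ncoa3.

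After 2 days of HFD the module as a whole lay slightly lower. Its members were chosen with earlier results of these data known, so the shares given here describe the module and do not test it. All members together had 4153, 4129, 4125 and 4098 CPM in the CD libraries and 3629, 3629 and 3770 CPM in the HFD libraries. Every HFD library was thus below every CD library in this sum, which was not tested. Log2 fold changes (HFD over CD) were below 0 for 29 members (76.3%, against 57.9% of all genes tested) and above 0 for 9, with a median of −0.26 against −0.08 over all genes tested. By the quasi-likelihood test of edgeR, 6 members (15.8%) were lower on HFD at an unadjusted p under 0.05, where 2.91% of all genes were, and 0 were higher, where 2.86% of all genes were. These 6 were Kdm6b, Kdm3b, Ncor1, Chd4, Prdm2 and Ncoa3. After adjustment over all genes 0 members passed 0.05 (0% of all genes did), and the lowest adjusted p of a member was 0.817. DESeq2 gave 12 members lower at an unadjusted p under 0.05, against 5.42% of all genes, and 0 at an adjusted p under 0.05, against 1.11%, with a lowest adjusted p of 0.111. In 7 members every HFD library was below every CD library (18.4%, against 5.37% of all genes), and 0 members had the opposite pattern (4.03% of all genes). Without HFD replicate 3 the unadjusted test called 2 members lower, or 5.26% against 3.82% of all genes, and the median was −0.18 against −0.04. Without CD replicate 4 it called 3 members lower, where 2.08% of all genes were, and without HFD replicate 4 it called 9, where 5.7% of all genes were. With a trend of the fold change on transcript length removed it called 2 members lower, against 2.49% of all genes.

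**Figure D1:**
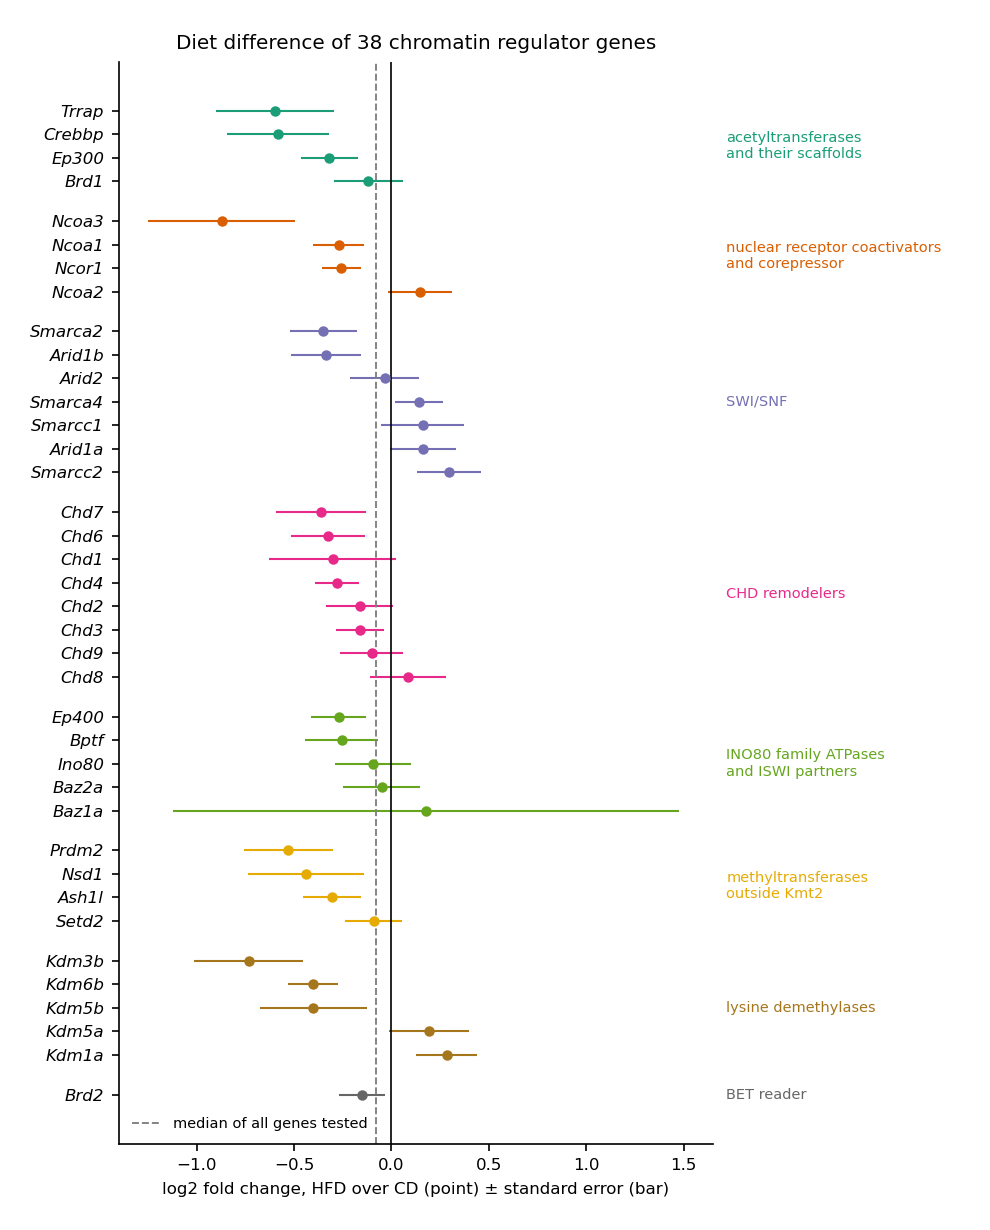
Log2 fold change of HFD over CD for each of the 38 members (points, 4 CD and 3 HFD libraries) with its standard error (bars), grouped by role; the dashed line is the median of all genes tested at −0.08. The points of acetyltransferases and methyltransferases all lie below 0, those of the 7 SWI/SNF genes on both sides, and the bar of Baz1a, which had 0 counts in HFD replicate 3, is the widest.

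The shift was seen in each HFD library, but not to the same extent. Against the CD mean, the median log2 ratio of members was −0.22, −0.40 and −0.09 in HFD replicates 2, 3 and 4, and between −0.07 and 0.02 in the CD libraries. Over all genes tested it was −0.03, −0.30 and −0.02 in the same HFD libraries, and over other genes with a transcript of at least 5000 bases −0.11, −0.29 and −0.07. In HFD replicates 2 and 4 long genes thus lay between the members and all genes, and in HFD replicate 3 most of the shift was shared by all genes. Among the 2821 long genes outside the module 1836 were below 0, their median log2 fold change being −0.13, while the median of the members was −0.25 after the trend on transcript length was removed, with 2 members in place of 6 lower at an unadjusted p under 0.05. All 3 nuclear RNAs examined were lower in every HFD library than in any CD library, as were 5.37% of all genes. None of the 3 passed after adjustment. Malat1, a long noncoding RNA kept in nuclear speckles, had 1661, 1436, 1793 and 1334 CPM on CD and 922.4, 1182 and 924.4 CPM on HFD, and Neat1, the scaffold of paraspeckles, had a log2 fold change of −0.31 and Meg3 of −0.39 (edgeR adjusted p = 0.633 for Malat1 and Meg3 and 0.660 for Neat1). Malat1 and Meg3 were higher in HFD replicate 3 than in the other HFD libraries, as were 15 of the 38 members, while 21 members were lowest there. Their part, and that of transcript length, in the values of the members was not tested beyond this.

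**Figure D2:**
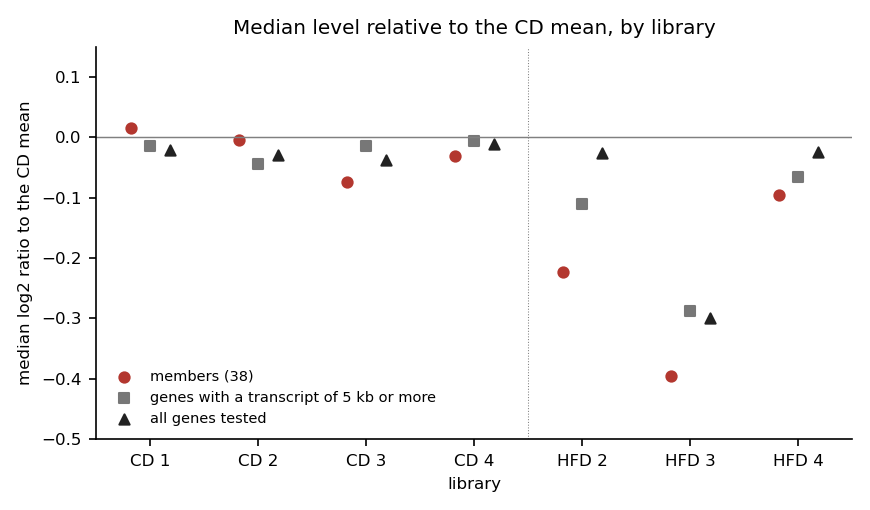
Median log2 ratio to the CD mean in each library, for the 38 members (circles), other genes with a transcript of at least 5 kb (squares) and all genes tested (triangles). HFD 3 is low for all 3 kinds of gene, and in HFD 2 the members, at −0.22, lie below the long genes at −0.11 and all genes at −0.03.

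The 4 members that are acetyltransferases or their scaffolds were all below 0, and 3 of the 4 were without HFD replicate 3. Ep300, which encodes a histone acetyltransferase of active enhancers, lies on chromosome 15 from 81585351 to 81652077 (GRCm38). It had 59.2, 74.6, 74.7 and 76.7 CPM in the CD libraries and 55.2, 58.6 and 57.8 CPM in the HFD libraries. The groups did not overlap, although CD replicate 1 came within 1 CPM of the highest HFD library, and the log2 fold change was −0.32 (standard error, SE, 0.15, edgeR adjusted p = 0.856). Its paralog Crebbp, which encodes CBP and lies on chromosome 16 from 4081328 to 4213997, had 46.4, 44.8, 40.3 and 45.1 CPM on CD and 25.1, 20.1 and 43.1 CPM on HFD. Here 2 HFD libraries were far under the CD range and the other, replicate 4, was inside it. The log2 fold change of Crebbp was −0.58 (SE 0.26, edgeR adjusted p = 0.854), or −0.38 without HFD replicate 3 and −0.98 without HFD replicate 4. Trrap, a scaffold that SAGA and TIP60 complexes share, had 85.9, 85.1, 206.7 and 101.0 CPM on CD and 79.5, 80.1 and 77.8 CPM on HFD. All HFD values of Trrap lay close together just under the CD range, and CD replicate 3 set the size of its difference, with a log2 fold change of −0.60 with it and −0.20 without it. Brd1, a scaffold of MYST acetyltransferases, was at −0.12, and at 0.02 without HFD replicate 3. Of 21 other acetyltransferase genes and subunits of their complexes, 13 were below 0 (11 without HFD replicate 3) and 1 passed an unadjusted p of 0.05. This was Taf5l at 0.47 (0.28 without HFD replicate 3), with 31.7 to 42.0 CPM on CD and 40.9 to 60.9 on HFD. Over all genes tested, 57.9% were below 0, and at that p 2.91% were lower and 2.86% higher. The same shares stand beside each list of other subunits below.

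Of the 4 nuclear receptor coregulators, 3 were below 0, and all 4 were without HFD replicate 3. Ncor1 is a scaffold that brings a histone deacetylase to unliganded nuclear receptors, and lies on chromosome 11 from 62316426 to 62458541. It had 246.4, 227.9, 221.9 and 226.6 CPM on CD and 189.0, 187.6 and 202.2 CPM on HFD. The means of the groups lay farther apart than the range of either group, with a log2 fold change of −0.26 (SE 0.10, edgeR adjusted p = 0.833) that was −0.25 without HFD replicate 3. Ncoa1, a coactivator of steroid and thyroid hormone receptors, had 104.4, 109.1, 93.5 and 106.0 CPM on CD and 90.6, 74.8 and 91.1 CPM on HFD, also without overlap, for a log2 fold change of −0.27. Ncoa3, of the same family, had 44.0, 35.8, 109.5 and 42.8 CPM on CD and 37.1, 26.9 and 31.3 CPM on HFD. CD replicate 3 stood far above the rest, and the log2 fold change of Ncoa3 was −0.87 (SE 0.38, edgeR adjusted p = 0.854) with it and −0.37 without it. The remaining family member, Ncoa2, was at 0.15, and at −0.05 without HFD replicate 3. Among 16 other corepressor and mediator genes, 12 were below 0 and 0 passed in either direction, with Sin3a at −0.37 and Med1 at −0.39, the latter at −0.20 without HFD replicate 3.

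**Figure D3:**
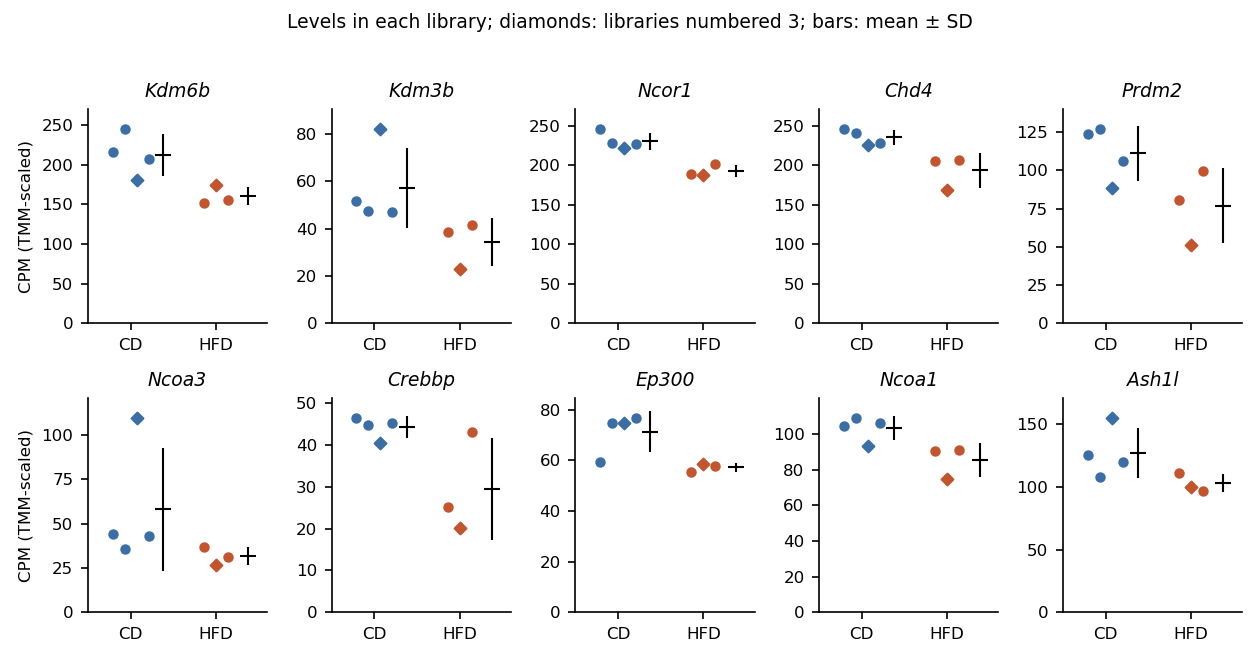
CPM in each library of the 10 members with the lowest p, in CD (blue, n = 4) and HFD (orange, n = 3), with mean and SD beside each group; diamonds mark the libraries numbered 3. Kdm6b, Kdm3b, Ncor1, Chd4, Ep300 and Ncoa1 separate the groups in all libraries, and the groups overlap in the other panels. The high CD diamonds of Kdm3b (82.2 CPM) and Ncoa3 (109.5 CPM) stand above every other library.

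SWI/SNF genes had no common direction. These complexes use 1 of 2 alternative ATPases, encoded by Smarca4 (BRG1) and Smarca2 (BRM), and 1 of several ARID subunits. Smarca2 had 103.7, 124.4, 85.8 and 101.1 CPM on CD and 81.4, 67.5 and 95.3 CPM on HFD. The groups overlapped, with HFD replicate 4 above CD replicate 3, and the log2 fold change was −0.35 (SE 0.17, edgeR adjusted p = 0.861). Smarca4 was at 0.14, or 0.06 without CD replicate 3, with 139.8 to 183.2 CPM on CD and 177.7 to 185.2 CPM on HFD. Of the ARID subunits, Arid1b was at −0.34, and at −0.22 without CD replicate 1, its highest library. Arid1a was at 0.16, and at −0.06 without HFD replicate 3, while Arid2, which belongs to the PBAF form, was at −0.03. The core subunits Smarcc1 and Smarcc2 were at 0.16 and 0.29, and Smarcc2 was at 0.05 without HFD replicate 3, where it had 306.0 CPM against 174.2 to 218.5 in all other libraries. Of 18 other SWI/SNF subunits tested, 9 were below 0 and 0 passed an unadjusted p of 0.05. Dpf2, Ss18l1 and Bcl11a had the lowest p of these, at −0.41, −0.68 and 1.79, and without HFD replicate 3 Dpf2 was at −0.16 and Bcl11a at 0.42.

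CHD remodelers were below 0 in 7 of 8 cases. Chd4, the main ATPase of the NuRD complex, which joins remodeling to histone deacetylation, lies on chromosome 6 from 125095981 to 125130591. It had 246.0, 241.2, 226.2 and 227.9 CPM on CD and 205.8, 168.4 and 206.7 CPM on HFD. The 4 CD libraries stayed within a coefficient of variation of 4.16%, and all HFD libraries were under them, with a log2 fold change of −0.28 (SE 0.11, edgeR adjusted p = 0.854) that was −0.20 without HFD replicate 3. Its relative Chd3 was at −0.16, with −0.09 and −0.25 without HFD replicates 2 and 3. Chd6, Chd7 and Chd1 were at −0.33, −0.36 and −0.30, yet HFD replicate 3 held their lowest values, and without it Chd7 was at −0.17 and Chd1 at 0.02. Without HFD replicate 2 these were at −0.71 and −0.60, and without CD replicate 3 Chd6 was at −0.21. Chd2 (−0.16), Chd9 (−0.10) and Chd8 (0.09) were nearer 0, and without HFD replicate 3 they were at −0.01, −0.14 and −0.20. Reads of Chd2 may include some of 1810026B05Rik, which shares 18.4% of its exon bases on the same strand. Other NuRD genes went both ways. Of 12 tested, 6 were below 0. Mbd3, a core subunit that links the deacetylase and remodeling parts, had 51.7, 49.1, 44.2 and 56.5 CPM on CD and 65.3, 69.5 and 75.1 CPM on HFD, for a log2 fold change of 0.47. Mta3 had 45.8 to 58.4 CPM on CD and 40.1 to 41.0 on HFD, and Mta1 had 71.5 to 106.2 and 53.7 to 67.7. Both of these histone deacetylase partners were thus lower in every HFD library, at −0.41 and −0.45, while Mbd3 was higher in every one. Of all genes tested, 5.37% had the first pattern and 4.03% the second. None of the 3 passed after adjustment (adjusted p = 0.790, 0.817 and 0.833 for Mbd3, Mta3 and Mta1 by edgeR).

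INO80 family ATPases and ISWI partners had a median of −0.09, close to that of all genes. Ep400, the ATPase of the TIP60 complex that places the histone variant H2A.Z, had 100.7, 97.1, 115.3 and 113.0 CPM on CD and 91.0, 74.96 and 98.9 CPM on HFD. Only HFD replicate 4 reached into the CD range, by less than 2 CPM, and the log2 fold change was −0.27 (SE 0.14, edgeR adjusted p = 0.861). Bptf, the reader subunit of NURF, was at −0.26, with −0.51 without HFD replicate 3 and −0.10 without HFD replicate 2. Ino80 itself was at −0.09, or −0.21 without HFD replicate 4, and Baz2a, of the nucleolar remodeling complex, at −0.05. Baz1a, of the ACF and CHRAC complexes, was the one member at a low level. It had 3.94, 1.07, 2.69 and 3.83 CPM on CD and 5.54, 0 and 4.23 CPM on HFD. The 0 in HFD replicate 3 allows up to 0.27 CPM (3 counts), and the log2 fold change of 0.18 (standard error 1.30) carries no direction, being 0.74 without that library. Of 28 other subunits of TIP60, INO80 and SRCAP complexes, 18 were below 0 (14 without HFD replicate 3). Only 1 passed an unadjusted p of 0.05 upward, Yeats4 at 0.52, where 2.86% of all genes did, while Vps72 and Ino80d were at −0.47 and −0.41. Of 11 other ISWI and CHD genes 7 were below 0 (5 without HFD replicate 3) and 0 passed, with Rsf1, Baz1b and Chd5 at −0.31, −0.13 and −0.21, and Baz1b was at −0.03 without that library.

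The 4 members that are histone methyltransferases outside the Kmt2 family were all below 0. Prdm2, which methylates histone H3 at a repressive lysine, had 123.9, 127.0, 88.2 and 105.7 CPM on CD and 80.3, 50.9 and 99.7 CPM on HFD. HFD replicate 4 overlapped the CD range, and the log2 fold change was −0.53 (SE 0.23, edgeR adjusted p = 0.854), or −0.32 without HFD replicate 3. Ash1l, a methyltransferase that opposes Polycomb silencing, had 125.2, 107.8, 155.2 and 119.7 CPM on CD and 111.0, 100.4 and 97.2 CPM on HFD. The groups overlapped through CD replicate 2 alone, and the log2 fold change was −0.30, or −0.20 without CD replicate 3, its highest library. Nsd1 was at −0.44, but at 0.05 once the libraries numbered 3 were both left out, since CD replicate 3 was its highest and HFD replicate 3 its lowest value. Setd2, which marks the bodies of transcribed genes, was at −0.09. Other methyltransferase genes were below 0 in 16 of 19 cases, but in 10 without HFD replicate 3, where their median was −0.0028. Of these, Dot1l, which methylates the nucleosome core, was at −0.47 and passed an unadjusted p of 0.05 (2.91% of all genes did, downward). It had 102.4, 88.6, 72.1 and 111.0 CPM on CD and 67.6, 62.1 and 72.5 CPM on HFD, so the groups met at CD replicate 3. Suv39h2 and Ezh2, at 1.31 and 1.13 (0.55 and 1.30 without HFD replicate 3), were low genes. Suv39h2 had 1.34 to 3.02 CPM on CD and 3.12 to 10.4 on HFD, and Ezh2 had 2.02 to 2.76 and 3.84 to 7.29. Every HFD library was above every CD library in these 2 of the 19 genes (4.03% of all genes), and 0 had the opposite pattern (5.37%). Neither gene passed an unadjusted p of 0.05.

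Lysine demethylases held the 2 lowest p values of the module. Kdm6b, which removes the Polycomb mark from histone H3, lies on chromosome 11 from 69398508 to 69413675. It had 216.2, 245.0, 180.3 and 207.5 CPM on CD and 151.5, 173.9 and 155.9 CPM on HFD. All HFD libraries were under the lowest CD library, and the log2 fold change of −0.40 (SE 0.13, edgeR adjusted p = 0.817) became −0.54 without the libraries numbered 3. Kdm3b, which demethylates a repressive lysine of histone H3, had 51.8, 47.5, 82.2 and 46.9 CPM on CD and 38.8, 22.8 and 41.4 CPM on HFD. Its groups did not overlap either, but CD replicate 3 was high and HFD replicate 3 low, and the log2 fold change was −0.73 (SE 0.28, edgeR adjusted p = 0.817) with both and −0.28 without them. The noncoding RNA gene Gm26538 covers 24.6% of the exon bases of Kdm3b on the opposite strand and has no counts of its own here. If strand was not used in counting, Kdm3b may include some of its reads. Kdm1a (LSD1), at 0.28, and Kdm5a, at 0.19, were above 0, each with its highest value in HFD replicate 3 (165.5 and 113.4 CPM), and without that library they were at 0.07 and −0.11. Kdm5b was at −0.40, at −0.12 without it and at −0.68 without HFD replicate 4. Of 12 other demethylase genes, 11 were below 0 (10 without HFD replicate 3) and 2 were lower at an unadjusted p under 0.05. Over all genes tested, 57.9% were below 0 and 2.91% were lower at that p. Jmjd1c, a relative of Kdm3b, had 445.3, 518.4, 394.1 and 394.3 CPM on CD and 369.2, 260.3 and 301.1 CPM on HFD (log2 fold change −0.50), and Kdm3a, the third gene of that subfamily, had 29.0 to 44.3 and 16.4 to 33.9 CPM (−0.67). Neither passed after adjustment, and Jmjd1c was at −0.40 and Kdm3a at −0.47 without HFD replicate 3. Brd2, the BET reader, was at −0.15, with 374.8, 385.6, 320.2 and 392.4 CPM on CD and 346.2, 289.5 and 358.3 CPM on HFD, and its relative Brd3 was at −0.08. Without HFD replicate 3 Brd2 was at −0.08 and Brd3 at −0.40.

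**Figure D4:**
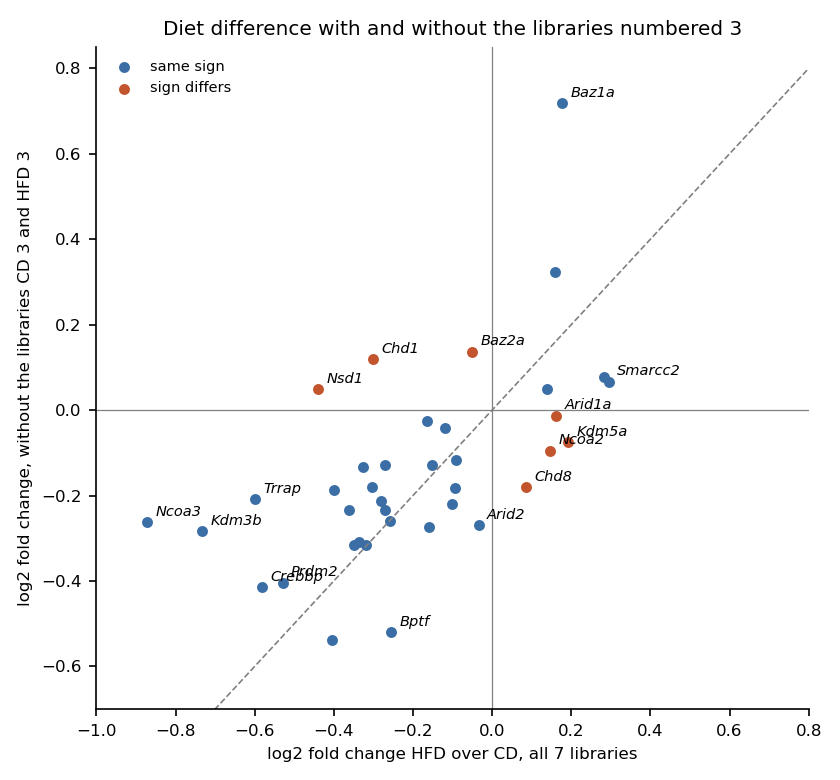
Log2 fold change of each member with all 7 libraries (horizontal axis) against that without CD replicate 3 and HFD replicate 3 (vertical axis); the dashed line marks equal values and orange points changed sign. Ncoa3 (−0.87 to −0.26), Kdm3b (−0.73 to −0.28) and Trrap (−0.60 to −0.21) moved towards 0, and 7 members changed sign.

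Which libraries carried these values was therefore followed for all members. Leaving out 1 of the 7 libraries moved the log2 fold change by more than 1.5 times or turned its sign in 30 of the 38, and did so in none of Chd4, Ep300, Ep400, Kdm3b, Kdm6b, Ncoa1, Ncor1 and Smarca2. Of the 29 members below 0, 19 had their lowest value in HFD replicate 3, and of the 9 above 0, 7 had their highest value there. In CD replicate 3 the genes Trrap, Ncoa3 and Kdm3b were each more than 1.5-fold over every other library, and 4.04% of all genes were so in that library. With both of these libraries left out, 30 of 38 members were below 0, with a median of −0.18 against −0.01 over all genes. Excluding Baz1a, the members then ran from −0.54 (Kdm6b) to 0.32 (Smarcc1). Under 19 alternative settings, 25 members kept their sign in all of them, 22 of them below 0 and 3 above.

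Related genes were then set against each other within each library, since such a ratio does not depend on how libraries are scaled. Ratios of counts also carry the lengths of the genes, so only their difference between diets is read. Over 10 pairs, the groups were apart only for Smarca4 to Smarca2, the alternative SWI/SNF ATPases. The log2 ratio was 0.78, 0.56, 0.70 and 0.65 in the CD libraries and 1.16, 1.46 and 0.90 in the HFD libraries, or 0.67 ± 0.09 (SD, n = 4) and 1.17 ± 0.28 (SD, n = 3). The ratio was higher in 3 of 3 HFD libraries than in every CD library, with a difference of 0.50 (exact permutation test, two-sided, p = 0.0571, which is as low as 4 against 3 libraries can give, and 0.429 after adjustment over the 10 pairs), and 0.36 without HFD replicate 3. Crebbp to Ep300 differed by −0.35 (exact permutation p = 0.343), by −0.09 without HFD replicate 3 and by −0.65 without HFD replicate 4. Ncoa1 to Ncoa2 differed by −0.41 (exact p = 0.114), Ncoa3 to Ncoa2 by −0.86 (exact p = 0.171) and Arid1a to Arid1b by 0.47 (exact p = 0.171). The first and the last of these were −0.15 and 0.23 without HFD replicate 3, and Ncoa3 to Ncoa2 was −0.45 without CD replicate 3. The remaining pairs, Smarcc1 to Smarcc2, Chd4 to Chd3, Chd1 to Chd2, Chd8 to Chd7 and Kdm5a to Kdm5b, differed by −0.14, −0.12, −0.25, 0.46 and 0.64, with exact permutation p values of 0.400 to 0.857, and their most distant library was HFD replicate 3. Without it they differed by 0.28, 0.05, 0.04, −0.01 and 0.02.

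**Figure D5:**
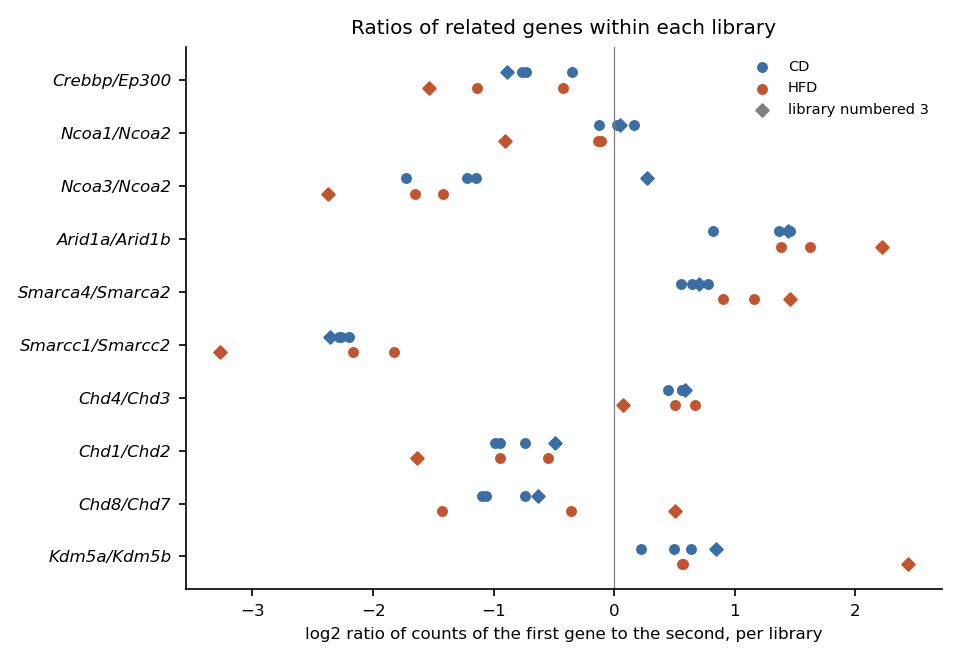
Log2 ratio of counts within each library for 10 pairs of related genes, in CD (blue, n = 4) and HFD (orange, n = 3); diamonds mark the libraries numbered 3. For Smarca4 to Smarca2 the HFD libraries (0.90 to 1.46) lie above all CD libraries (0.56 to 0.78), and in the other pairs the groups overlap.

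Taken over all lists of other subunits, 139 genes were tested, of which 94 (67.6%) were below 0 with a median of −0.15, against 57.9% of all genes and 65.1% of long genes outside the module. At an unadjusted p under 0.05, 5 were lower (Mta3, Mta1, Dot1l, Jmjd1c and Kdm3a) and 3 higher (Mbd3, Taf5l and Yeats4). These 3.60% and 2.16% are close to the 2.91% and 2.86% of all genes. Without HFD replicate 3 the number below 0 was 79 and the median was −0.03, against −0.04 over all genes, while 30 of the 38 members were below 0. The lists were not alike. Medians of the 16 other corepressor and mediator genes and 12 other demethylases were −0.26 and −0.24, near the −0.26 of the members. Without HFD replicate 3 they were −0.17 and −0.20, against −0.18 for the members. In the remaining lists it was then −0.02 to 0.04, apart from the 2 other BET readers at −0.39.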

How the data were processed

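RNA-seq libraries of FACS-sorted β-cells from 4 CD and 3 HFD mice were used. The authors deposited 1 table of unnormalized read counts, with a row per gene symbol. Their processing notes name mm10 and edgeR. How reads were aligned and counted, and whether strand was used, is not given in the sources used here, and overlapping genes could therefore share counts. Of 24062 rows, 27 held a date in place of a symbol (at most 0.155% of counts) and were left out. Of the other 24035 genes, 98.4% were matched by symbol to GENCODE M21 on GRCm38, the assembly of mm10, which gave coordinates (from 1), length and GC content of the longest transcript.

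HFD was compared with CD over all 7 libraries without covariates, on counts, by the quasi-likelihood test of edgeR 4.0.16 (R 4.3.3; filterByExpr, TMM, two-sided, Benjamini-Hochberg over 12354 genes). CPM of single genes are TMM-scaled. Standard errors are the log2 fold change over the root of the F statistic. Ratios of paralogs used counts plus 0.5 and a two-sided exact permutation test over 35 divisions (scipy 1.17.1). The fits were tested on simulated counts.

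The members and all gene lists were chosen with earlier results of these data known. Every member could be named. Values in every library were given for the 10 members of lowest p, for the member of lowest p in each role and for members with a 0. Up to 3 genes of lowest p were named from each list of other subunits, of which some are not reported here. Trrap was given per library, and lists of CPM for further genes, after these had been looked at. The settings varied were the test (likelihood ratio test, DESeq2 1.42.0, limma-voom of limma 3.58.1), upper-quartile and RLE factors, no filter or a filter of 1 CPM in 3 libraries, each library left out, the replicate number as a block, removal of a loess trend (span 0.5) on length or GC content, a threshold of 0.1 and ratios of CPM plus 1. Leaving out both replicates numbered 3 was chosen after seeing the data.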

Additional observations from a re-analysis of the deposited data

Results flagged for a closer look

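Among the 4 CD libraries, 5 of the 38 members had 1 library far from the other 3 by Dixon's criterion. Chance alone gives such a library in about 1 of 20 groups. The share over all genes tested is not given here, so no excess among the members is read from this. CD replicate 3 was the highest for Kdm3b (82.15 CPM), Ncoa3 (109.5 CPM) and Trrap (206.7 CPM), all with a log2 fold change below 0 that was nearer 0 without this library (−0.51, −0.37 and −0.20). CD replicate 1 was the lowest for Ep300 (59.23 CPM), and CD replicate 2 was the highest for Bptf (139.9 CPM).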

How the results depend on the processing

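The number of members with an adjusted p under 0.05 was 0 under all alternatives run, and 27 to 30 members were below 0 when a library was left out. At an unadjusted p under 0.05, the 6 members lower on HFD (2.91% of all genes) became 12 by DESeq2 (5.42%), 3 with upper-quartile factors (2.29%), 2 with the length trend removed (2.49%), 3 without both replicates numbered 3 (3.99%), 14 at a threshold of 0.1 (5.93%), and 2 to 9 when each library was left out (2.08% to 5.7%). The 0 higher members became 0 to 2 (1.81% to 3.21% of all genes) when a library was left out. Members with no overlap between the groups numbered 7 to 13 below (7.15% to 13.3% of all genes) and 0 to 2 above (5.36% to 9.73%) when a library was left out, and 14 (12.9%) and 2 (14.1%) without both replicates numbered 3. The median log2 fold change of −0.26 was −0.29 to −0.18 when a library was left out and −0.18 without both replicates numbered 3.

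Deviations from the group means correlated at r = 0.0253, 0.00424 and 0.0816 between the samples numbered 2, 3 and 4, all under 0.1, so the number is not taken to pair them. HFD replicates 2 and 4 correlated best with the CD library of their own number, and HFD replicate 3 with CD replicate 1 (r = 0.0215). With the replicate block, 2 members were lower at an unadjusted p under 0.05 (1.95% of all genes), also 2 with the length trend removed (1.67%), Arid1b was at −0.22, Chd9 at 0.0086 and Baz1a at −0.44, or −0.40 with the length trend removed.

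Of 38 members, 13 changed sign under at least 1 alternative. The ranges when a library was left out were −0.059 to 0.27 for Arid1a, −0.11 to 0.36 for Kdm5a, −0.60 to 0.022 for Chd1, −0.053 to 0.22 for Ncoa2, −0.034 to 0.34 for Smarcc1, −0.22 to 0.024 for Brd1, −0.17 to 0.0077 for Setd2, −0.20 to 0.0017 for Chd9, −0.20 to 0.27 for Chd8, −0.20 to 0.15 for Baz2a, −0.22 to 0.059 for Arid2 and −0.44 to 0.74 for Baz1a, which was at −1.185 by limma-voom. Without both replicates numbered 3, Nsd1 was at 0.050, Arid1a at −0.013, Kdm5a at −0.075, Chd1 at 0.12, Ncoa2 at −0.095, Chd8 at −0.18 and Baz2a at 0.14. Of the ratios, those of Smarcc1 to Smarcc2, Chd4 to Chd3, Chd1 to Chd2 and Chd8 to Chd7 ran from −0.44 to 0.28, −0.25 to 0.047, −0.50 to 0.043 and −0.010 to 0.96, and that of Kdm5a to Kdm5b from 0.018 to 0.95. The cause was not tested.

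Members other than Baz1a had 174 to 7140 counts in a library, while Baz1a, at 0 to 75 counts, allows no statement on direction.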
